A study of Mus musculus with 4 samples.

Results

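The TNF superfamily and NF-kB genes described here are 60 of the 25965 rows in a table of gene levels from cultured mouse aortic smooth muscle cells. They were chosen by name alone: every Tnfsf and Tnfrsf gene, Traf1 to Traf7, every Nfkb gene, and Tnf, Lta, Ltb, Ltbr, Fas, Cd40, Rel, Rela, Relb, Tnfaip3, Birc2, Birc3, Ikbkb, Ikbkg and Chuk. The names divide them into 13 ligands, 23 receptors, 7 TRAF adaptors, 3 ubiquitin-system genes, 3 genes of the IKK complex, 5 NF-kB subunits and 6 genes of the IkB family and its relatives. Tnfsf12, the ligand gene of the TWEAK system, was not analysed here.

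Polyadenylated RNA was measured in 4 libraries, all of 1 group: vascular smooth muscle cells (VSMCs) from the medial layer of aortas of male C57Bl/6 mice (wild type, healthy, 8 to 14 weeks old), expanded in serum-containing medium for 3 to 5 passages, with no treatment named. The labels do not say whether each library came from its own animals or culture, so the spread between libraries may be partly technical. Values are log2 scaled read counts (the number of reads on a gene times a constant of its library), and a gene counted as detected at a value of at least 0 in 4 of 4 libraries, which took 22 to 30 reads. Single genes are compared with each other after division by exon length, as log2 per kilobase. Medians set against all rows or all detected genes are not divided by length. The libraries held 40342561 to 56793195 reads on genes, which is 1.83 to 1.94 times the totals that the constants give if the scaling is that of CPM. What was counted as 1 read (both reads of a pair, or parts of a spliced read) is not given, so read counts here are in these units. All 6 smooth muscle markers were detected, and their summed level was lowest in library 2 (11.82) and highest in library 4 (13.99). Of 11 leukocyte markers 3 were detected, and Cd3e and Cd79a had no reads. Of 8 osteoblast and chondrocyte markers 4 were detected, among them the cartilage collagen gene Col2a1 at 217347 to 502768 reads. The fibroblast markers, of which 5 of 6 were detected, summed to 9.60, 9.26, 6.39 and 5.89 in libraries 1 to 4.

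Ligands of the TNF superfamily are mostly trimeric proteins on leukocytes and other cells, and their receptors recruit TRAF adaptors or death-domain proteins. Receptors such as the TNF receptors activate the canonical NF-kB pathway, in which the IKK complex marks IkB proteins for degradation and releases dimers of the Rela and Nfkb1 products. Receptors such as the lymphotoxin beta receptor can also activate the noncanonical pathway, in which the Nfkb2 product is processed to a partner of RelB. NF-kB in turn induces several of its own subunits and inhibitors, and this feedback limits the response.

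Since several members are known NF-kB targets, the windows from 250 bases before to 50 after the start of RefSeq genes (build GRCm38.p6) were searched for kappaB-like letters, here GGG and TTCC separated by any 3 bases, or GGAA and CCC separated by 3 where the match lies on the opposite strand. Windows were found for 49 of the 60 members, and 14 of these genes (28.6%) held a match. Of all 16047 genes of the table with a window, 1062 held one (6.62%). Counted by window, since some genes have several, the shares were 17 of 63 member windows (27.0%) and 1825 of 32851 windows (5.56%). Among detected genes, the match was present for 12 of 31 members and for 7.21% of 8595 genes. The sites of 7 members follow, each with up to 10 bases on either side, read along the gene's own strand, with the matched letters in capitals. They belong to 7 of the 12 detected members with a match, picked after the matches were seen as examples of inhibitors (Nfkbia, Nfkbie, Tnfaip3), subunits (Nfkb2, Rel) and adaptors (Traf3, Traf5), and are the matches before each gene's most upstream RefSeq start.
Nfkbia: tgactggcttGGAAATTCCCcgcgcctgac
Nfkbie: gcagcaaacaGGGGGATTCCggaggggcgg
Nfkb2, upstream site: gatcgtcacgGGAATTCCCCccctcggggg
Nfkb2, downstream site: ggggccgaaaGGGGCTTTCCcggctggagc
Rel: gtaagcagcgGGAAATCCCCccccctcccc
Tnfaip3: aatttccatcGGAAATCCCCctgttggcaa
Traf3: ggcggcccgcGGGGATTTCCagcgcgcgag
Traf5: tctagggtctGGGTGATTCCcagcatctag
Counted from the start, with -1 the last base before it, the first matched base lay at -29 in Nfkbia (chr12:55492657-55492686, minus strand), -106 in Nfkbie (chr17:45555584-45555613, plus) and -91 in Rel (chr11:23771041-23771070, minus). It lay at -12 in Tnfaip3 (chr10:19015403-19015432, minus), -10 in Traf3 (chr12:111166350-111166379, plus) and -207 in Traf5 (chr1:192092787-192092816, minus). The Nfkb2 sites began at -38 and -11 (chr19:46304689-46304718 and chr19:46304716-46304745, plus). Further matches, not shown, lay at 34 after the same start and at -90 from a second start in Tnfaip3, and in Nfkb2 at -236 and 11 from a second start, the latter also at -225 from another. Annotated exons cover all 250 bases before the most upstream Nfkb2 start. The other detected members with a match were Traf2, Traf7, Tnfrsf25, Nfkbid and Chuk, and the undetected ones were Tnfrsf9 and Ltb. No window was held for Relb, Nfkb1, Nfkbiz or Ikbkb, and these letters were not found in the windows of Rela, Nfkbib, Traf1, Ltbr, Tnfrsf12a or Tnfrsf1a. A match describes letters and is not a measured binding site.

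The 250 bases upstream of Nfkbia, the gene of the main IkB inhibitor, carry that match close to the start, and the annotation has no exon in this stretch (chr12:55492648-55492897, minus strand, GRCm38.p6, kappaB-like letters in capitals).
Nfkbia: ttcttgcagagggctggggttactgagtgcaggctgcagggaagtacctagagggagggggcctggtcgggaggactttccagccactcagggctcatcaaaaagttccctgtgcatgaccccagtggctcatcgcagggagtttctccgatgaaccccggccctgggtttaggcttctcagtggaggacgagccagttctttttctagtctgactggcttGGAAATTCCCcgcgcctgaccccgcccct

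Of the 60 members, 39 were detected (65.0%), against 47.4% of all rows of the table, and 5 had no reads in any library against 28.7% of all rows. Detection divided the pathway by role. All 24 genes that act inside the cell were detected (7 adaptors, 3 ubiquitin genes, 3 IKK genes, 5 subunits and 6 IkB family genes), with 13 of 23 receptors and 2 of 13 ligands. Of the 24, Rel and Nfkbid lay near the threshold, with lowest values of 0.12 in library 4 and 0.23 in library 1. With median-ratio size factors Nfkbid fell below it (-0.09 in library 1). The median level over all members was 3.54 ± 0.28 (SD, n = 4), against 0.30 ± 0.36 over all rows. Over the 39 detected members it was 5.18, near the 5.11 of all detected genes.

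**Figure D1:**
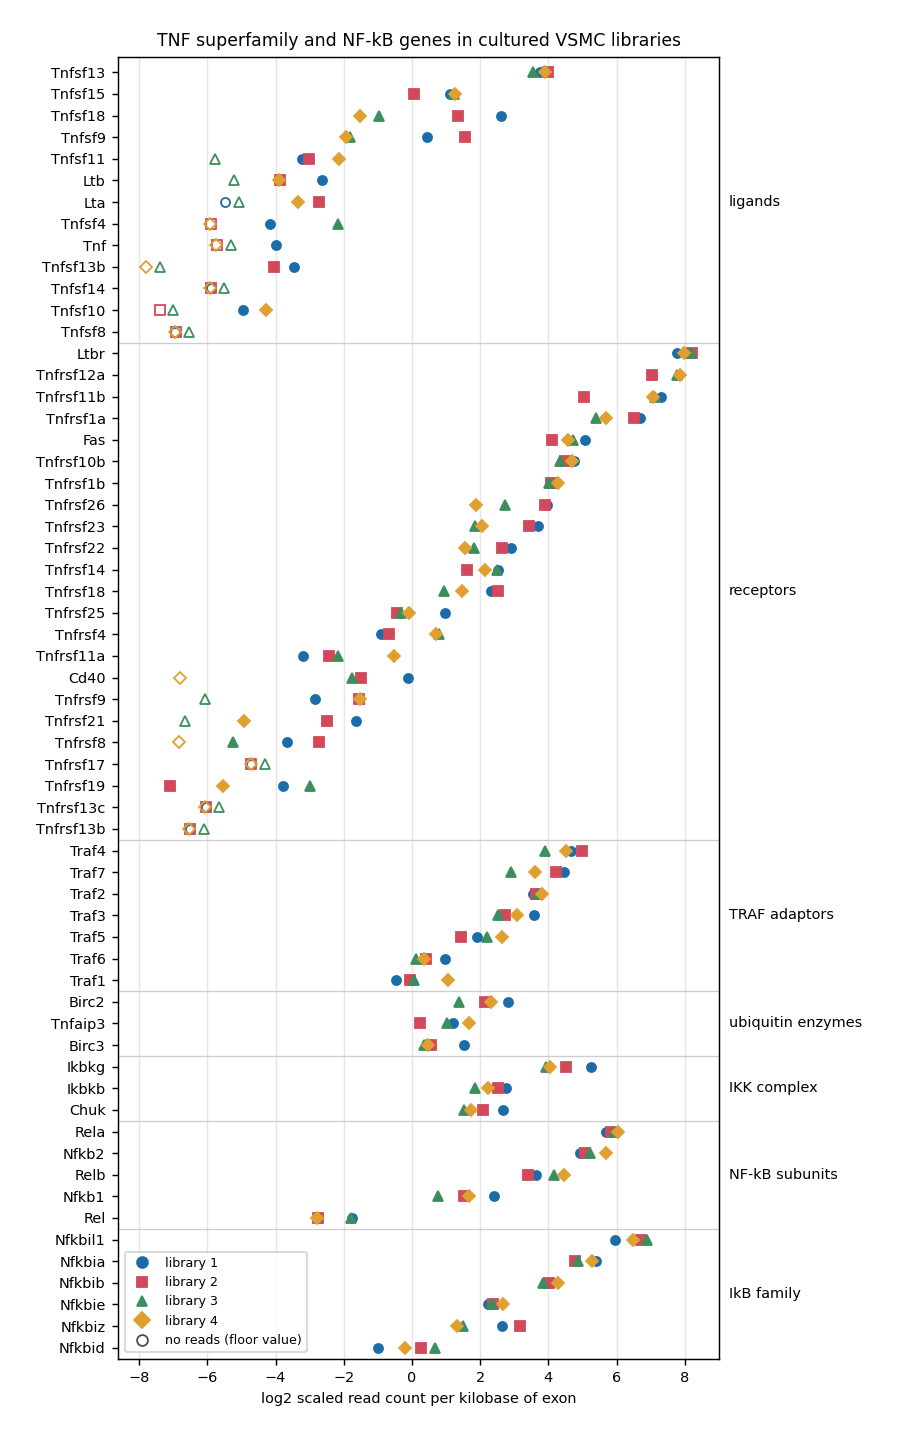
Level of each of the 60 genes in log2 scaled read count per kilobase of exon (horizontal axis), grouped by role, with 1 symbol per library. Open symbols are floor values of genes without reads. Most ligand genes lie at the left with open symbols, while Ltbr, Tnfrsf12a and Tnfrsf11b lie farthest to the right.

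Ligand transcripts were scarce. Tnfsf13 and Tnfsf15 were detected, and the remaining 11 ligands missed the threshold in at least 1 library. Tnfsf13, the gene of APRIL, a B-cell survival factor, had values of 4.46, 4.70, 4.26 and 4.60 in libraries 1 to 4, a narrow range. Its reads cannot be assigned with certainty, because 60.0% of its exon bases are shared with the same-strand gene Tnfsfm13 and 13.5% with the opposite-strand Tnfsf13os. Tnfsf15, the gene of TL1A, had 2.87, 1.79, 2.97 and 3.00, with library 2 lowest. Tnf itself had 3 reads in library 1 and none in the others, where a count of 0 allows up to 3 reads. The lymphotoxin genes were as sparse: Lta had 0, 6, 0 and 4 reads and Ltb 7, 3, 0 and 3. Both flank Tnf on chromosome 17 (Ltb from 35194439, Lta to 35205351, GRCm38), and the next member along, Nfkbil1 (35220175 to 35235792), had 3134 to 5279 reads.

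Among the other undetected ligands, Tnfsf11, the gene of the osteoclast factor RANKL, had 7, 8, 0 and 15 reads. Tnfsf10, which encodes the death ligand TRAIL, had 5, 0, 0 and 8, and Tnfsf4, the gene of OX40 ligand, 3, 0, 9 and 0. Tnfsf8 and Tnfsf14, the genes of CD30 ligand and LIGHT, had no reads. A further 3 ligands were concentrated in libraries 1 and 2. Tnfsf18, the gene of GITR ligand, had 364, 153, 23 and 21 reads, and reached the threshold in libraries 1 to 3. Tnfsf9, the gene of 4-1BB ligand, had 51, 109, 8 and 10 reads, and 14.9% of its exon bases overlap an opposite-strand transcript. Tnfsf13b, the gene of the B-cell factor BAFF, had 18, 12, 0 and 0. The summed level of the leukocyte markers was also higher in those libraries, at 6.20, 5.95, 4.23 and 4.49. Among them C1qb had 192, 239, 0 and 0 reads and Ptprc 13, 27, 0 and 12. Cd14, with 187, 265, 115 and 273 reads, and Cd68, with 49, 35, 42 and 21, did not follow this order. The part of the leukocyte markers in the ligand values was not tested. In such bulk samples, fewer cells of a type and less RNA per cell cannot be told apart.

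Receptors ranged from the highest to the lowest members. Ltbr, the gene of the lymphotoxin beta receptor, had 9.00, 9.44, 9.43 and 9.23 (chromosome 6, 125306571 to 125313885). Its mean per kilobase of 8.04 ranked first of the 60 and stood above 96.8% of detected genes. Tnfrsf12a, the gene of the TWEAK receptor Fn14, had 7.98, 8.00, 8.73 and 8.81, with libraries 3 and 4 above 1 and 2 (chromosome 17, 23675447 to 23677449). It ranked second per kilobase of union exon, at 7.43, and exceeded Ltbr when the longest coding transcript was used instead (8.40 against 8.20). Tnfrsf11b encodes osteoprotegerin, the secreted decoy receptor that binds RANKL and TRAIL. Its values were 8.78, 6.55, 8.62 and 8.56 (chromosome 15, 54250619 to 54278484), so library 2, with 2701 reads against 8652 to 12805, stood apart. Tnfrsf11b had the widest spread of the detected members (SD 1.06). The smooth muscle markers were lowest in library 2 as well. So was the summed level of the osteoblast and chondrocyte markers, at 13.82, 12.89, 13.68 and 14.08. Col2a1 made up nearly all of it, at 13.80, 12.88, 13.67 and 14.06. Acan, the cartilage proteoglycan gene, had 2866, 319, 911 and 3261 reads. Of the other detected markers of that list, Runx2 was lowest in library 4 under both scalings (as deposited and by median-ratio size factors). Sox9 was lowest in library 3 as deposited (5.81) and in library 2 with size factors (6.09). The part of these markers was not tested.

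The receptors of TNF were both detected. Tnfrsf1a, the gene of the death-domain receptor TNFR1, had 8.07, 7.88, 6.77 and 7.08, and lies near Ltbr (chromosome 6, 125349362 to 125362484). Tnfrsf1b, the gene of TNFR2, was steadier, at 6.15, 6.01, 5.96 and 6.21 (chromosome 4, 145213463 to 145246870). Per kilobase Tnfrsf1a exceeded Tnfrsf1b by 1.93 ± 0.61 log2 units, and did so in 4 of 4 libraries. The death receptors Fas and Tnfrsf10b, the gene of the TRAIL receptor DR5, were also present. Fas had 6.10, 5.16, 5.77 and 5.61, and Tnfrsf10b 7.20, 6.92, 6.77 and 7.14. Their difference per kilobase, 0.05 ± 0.36, was positive in 2 libraries and negative in the other 2, so neither could be placed above the other.

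Neighbouring receptor genes on chromosome 7 moved alike. Tnfrsf22 and Tnfrsf23, which encode mouse TRAIL decoy receptors, lie with Tnfrsf26 between 143607685 and 143685872. Tnfrsf26 had 5.66, 5.59, 4.42 and 3.56, Tnfrsf23 5.70, 5.42, 3.83 and 4.03, and Tnfrsf22 4.97, 4.71, 3.89 and 3.64. In all 3, libraries 1 and 2 lay above libraries 3 and 4, under both scalings (as deposited and by median-ratio size factors). The fibroblast markers and the summed level of the leukocyte markers followed the same order, and the part of these markers was not tested. Reads of these related genes may be divided differently from their origin. On chromosome 4, Tnfrsf18, the gene of GITR, had 2.93, 3.14, 1.54 and 2.09, while the nearby Tnfrsf4, the gene of OX40, had 21, 25, 52 and 65 reads and reached the threshold in libraries 3 and 4 alone. A stretch of 27.2% of the Tnfrsf18 exon bases overlaps an opposite-strand transcript. Tnfrsf14, the gene of the LIGHT receptor HVEM, averaged 2.71 ± 0.42. Tnfrsf25, the gene of the TL1A receptor DR3, had 2.17, 0.76, 0.86 and 1.10, so this ligand and receptor pair was detected on both sides, although the receptor stayed low.

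Many of the 10 undetected receptors are known from lymphocytes. Tnfrsf13b, Tnfrsf13c and Tnfrsf17, the receptor genes for BAFF and APRIL, had no reads in 4 of 4 libraries. Cd40, a costimulatory receptor gene, had 91, 35, 22 and 0 reads. Tnfrsf9, the gene of 4-1BB, had 11, 27, 0 and 28, Tnfrsf8, the gene of CD30, 8, 15, 2 and 0, and Tnfrsf21, the gene of DR6, 38, 21, 0 and 4. Tnfrsf19, the gene of TROY, had 10, 1, 13 and 3 reads. Tnfrsf11a, the gene of the RANKL receptor RANK, had 19, 32, 29 and 121 reads and passed the threshold in libraries 2, 3 and 4. The osteoprotegerin gene was thus far higher than the genes of RANK and RANKL. Tnfrsf11b exceeded Tnfrsf11a by 8.72 ± 1.44 per kilobase. Against Tnfsf11 the difference was 9.73 ± 1.38 with the library without reads set at 3 reads, and 10.16 ± 2.08 with its deposited floor value. Ltbr exceeded Cd40 by 10.15 ± 2.14 by the first convention and 10.58 ± 2.95 by the second. With floor values, single libraries moved these sizes: Tnfrsf11b minus Tnfsf11 was 9.25 without library 3 and 10.86 without library 2, Ltbr minus Cd40 was 9.18 without library 4 and 11.48 without library 1, and Tnfrsf11b minus Tnfrsf11a, which needs no floor value, was 8.13 without library 1. The median of the 23 receptors exceeded that of the 13 ligands by 5.69 ± 0.35 per kilobase, or by 5.26 ± 0.60 with genes without reads set at 3 reads.

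TRAF adaptors couple the receptors to kinases and ubiquitin ligases. Traf2, the adaptor gene of the TNF receptors, had 5.90, 5.98, 6.06 and 6.16. Its range was 0.26 as deposited and 0.78 with median-ratio size factors. Traf1, which encodes an inducible TRAF without the RING domain, had 2.67, 3.10, 3.21 and 4.20, with library 4 highest. Traf2 exceeded Traf1 by 3.52 ± 0.54 per kilobase, or 2.91 with the longest transcript. Traf7 had 7.01, 6.76, 5.45 and 6.15. Traf4 averaged 6.24 ± 0.46, Traf3, the brake of the noncanonical pathway, 5.86 ± 0.47, Traf5 4.24 ± 0.51 and Traf6, the adaptor of interleukin-1 and Toll-like receptors, 3.44 ± 0.37. Birc2 and Birc3 encode the inhibitor of apoptosis proteins that work with TRAF2 as ubiquitin ligases. Birc2 had 5.02, 4.34, 3.57 and 4.52, and Birc3, close to it on chromosome 9, 3.85, 2.89, 2.67 and 2.80. Birc2 exceeded Birc3 by 1.44 ± 0.35 per kilobase. Tnfaip3, the gene of the deubiquitinating inhibitor A20, averaged 3.89 ± 0.59.

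The IKK complex joins the kinases of Chuk (IKK-alpha) and Ikbkb (IKK-beta) with the regulatory subunit of Ikbkg (NEMO). Ikbkb had 7.01, 6.76, 6.10 and 6.49, Chuk 5.02, 4.43, 3.87 and 4.08, and Ikbkg averaged 7.45 ± 0.61. Chuk minus Ikbkb was -0.33 ± 0.18 per kilobase of union exon. The size of this difference depended on the length used, since the union of annotated Ikbkb exons spans 19078 bases and its longest coding transcript 3977; with transcripts it was -2.06, with Chuk lower in 4 of 4 libraries either way. For Ikbkg, 5.15% of exon bases overlap the opposite-strand gene G6pdx.

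Of the subunits, Rela and Nfkb2 were highest. Rela, the gene of the transactivating p65, had 7.32, 7.45, 7.55 and 7.67 (chromosome 19, 5637483 to 5648130). Its range was 0.35 as deposited and 0.84 with median-ratio size factors. Nfkb2, the precursor gene of p52, had 7.14, 7.26, 7.43 and 7.88 (chromosome 19, 46304737 to 46312090). Relb, which encodes the partner of p52, had 5.61, 5.37, 6.12 and 6.42 (chromosome 7, 19606217 to 19629438). Nfkb1, the precursor gene of p50, had 6.01, 5.12, 4.36 and 5.26 (chromosome 3, 135584655 to 135691547). Rel, the c-Rel gene characteristic of lymphocytes, had 64, 32, 47 and 32 reads. Nfkb1 minus Nfkb2 was -3.64 ± 0.84 per kilobase of union exon and -2.34 with the longest transcripts, so the noncanonical precursor gene was higher in 4 of 4 libraries by both. Of the Nfkb2 exon bases, 11.6% and 6.52% overlap the opposite-strand genes AC114539.1 and Psd. Rela exceeded Rel by 8.15 ± 0.66, and Relb by 1.96 ± 0.37 or by 1.32 with the longest transcripts.

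In the IkB family, Nfkbia, the NF-kB-induced inhibitor gene, had 6.09, 5.45, 5.56 and 5.96, and Nfkbib 5.15, 5.12, 4.96 and 5.38. Nfkbia exceeded Nfkbib by 1.04 ± 0.25 per kilobase. Nfkbie averaged 4.01 ± 0.20. Of the nuclear members, Nfkbiz, a coactivator of secondary response genes, had 4.98, 5.49, 3.82 and 3.66. Nfkbid, the lowest of the 6 per kilobase (mean -0.07), had 34, 82, 82 and 60 reads. Nfkbil1, an IkB-like gene named by homology, was the highest of them per kilobase (6.51), with 6.75, 7.51, 7.69 and 7.30. Opposite-strand genes overlap 14.5% of the exon bases of Nfkbib (Ccer2) and 8.25% and 8.19% of those of Nfkbil1 (Atp6v1g2 and Gm16181).

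In all, 13 such differences were computed, of which 12 kept 1 sign throughout the 4 libraries. An exact permutation test that flips signs (two-sided, 16 arrangements) gave each of the 12 the smallest p it allows, which is an adjusted p of 0.135 over the 13 tests (Benjamini-Hochberg). No difference between genes could therefore pass 0.05 in 4 libraries. For Fas minus Tnfrsf10b the exact p was 0.875.

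**Figure D2:**
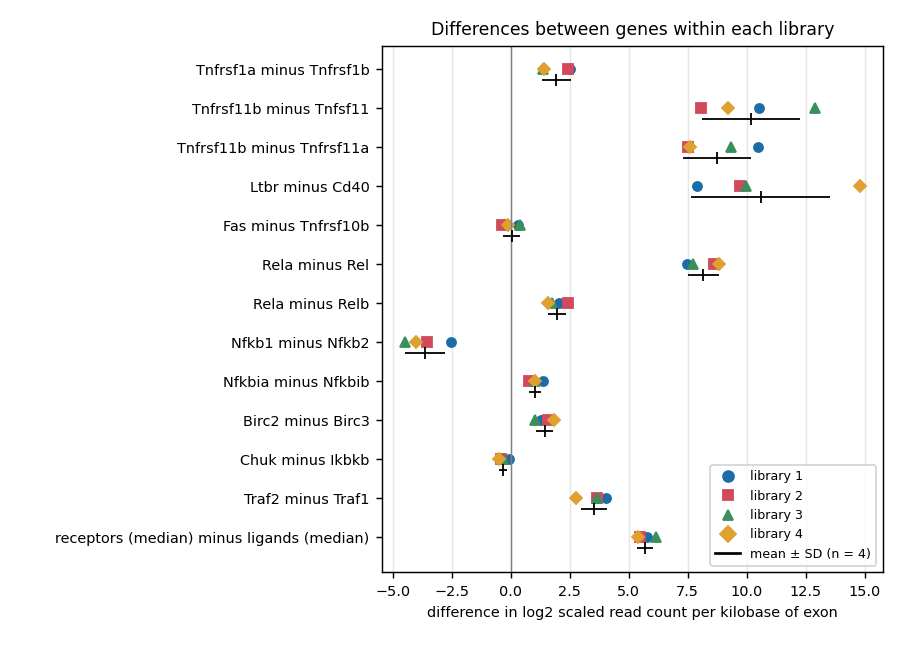
Difference in log2 scaled read count per kilobase of exon between named genes, 1 symbol per library, with the mean ± SD as a bar just under each row. The symbols of Fas minus Tnfrsf10b straddle 0, those of Nfkb1 minus Nfkb2 and Chuk minus Ikbkb lie below it, and the other 10 rows lie above it.

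Between libraries, 20 of the 39 detected members had an SD above 0.5 (51.3%), against 40.5% of all detected genes, and 2 had an SD above 1, Tnfrsf11b and Tnfrsf26 (5.13%, against 5.80%). The deposited scaling bears on this. Median-ratio size factors (which set the typical gene equal in each library) moved the median of detected genes by -0.32, -0.10, 0.30 and 0.12 in libraries 1 to 4. With the deposited scaling, 13, 2, 1 and 4 of the 20 variable members were highest in libraries 1 to 4, against 66.2%, 17.1%, 8.82% and 7.89% of all variable genes. With size factors, 15 of 38 detected members were variable (39.5%, against 30.8% of all detected genes). Of these, 1, 3, 6 and 5 were highest in libraries 1 to 4, against 30%, 19.8%, 35.9% and 14.3% of all variable genes. So the order of libraries is given here only where it held under both scalings.

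By that rule 10 members had an SD above 0.5 under both (25.6% of detected members, against 22.7% of all detected genes): Tnfrsf11b, Traf1, Tnfrsf26, Tnfsf15, Tnfaip3, Traf5, Tnfrsf23, Nfkbiz, Rel and Tnfrsf18. Tnfrsf11b and Tnfsf15 were lowest in library 2 under both, Tnfrsf26 and Nfkbiz lowest in library 4, and Tnfrsf23 and Tnfrsf18 lowest in library 3. Traf1, Tnfaip3 and Traf5 were highest in library 4. Relb and Nfkb2 were also highest in library 4 under both scalings, although their SD passed 0.5 only with size factors (0.70 and 0.54, against 0.48 and 0.33 as deposited). With size factors these were the 5 of 15 variable members highest in library 4. Traf1 then had 2.35, 3.00, 3.51 and 4.32, Relb 5.29, 5.27, 6.42 and 6.54, and Nfkb2 6.82, 7.17, 7.73 and 8.00. The smooth muscle markers were highest in library 4 too. So were Col2a1 and Acan, while Sox9 and Runx2, from the same osteoblast and chondrocyte list, were highest in library 1. The part of these markers was not tested.

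Some members differed little between libraries under both scalings. Tnfrsf10b had an SD of 0.20 under each, and Tnfrsf1b had 0.11 as deposited and 0.25 with size factors; they were chosen after their values were seen.

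**Figure D3:**
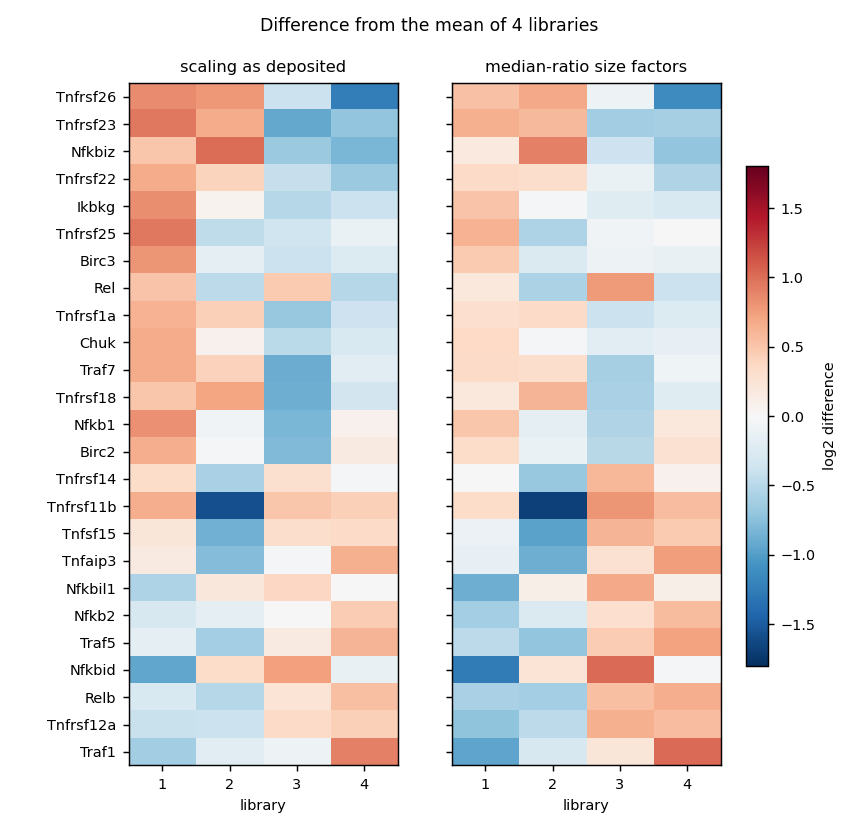
Difference of each gene from its mean over the 4 libraries, in log2 units (colour), for the 25 members with an SD above 0.5 under at least 1 scaling, as deposited on the left and with median-ratio size factors on the right. Library 1 is mostly red on the left and paler on the right, while the low Tnfrsf11b value of library 2 and the high Traf1 value of library 4 stand in both.

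Other genes of the pathway, outside the names that define the members, divided in the same way. Of 10 TNF family genes with other names, 3 were detected (30%, against 47.4% of all rows). The receptor gene Relt averaged 4.55 ± 0.50, Eda2r, the gene of an ectodysplasin receptor, 3.94 ± 0.60, and Eda, the ectodysplasin ligand gene, 2.28 ± 0.78. Fasl, Cd40lg and Cd70 had no reads, so no transcript of the Fas ligand gene was counted where Fas itself was detected. Of 23 genes of receptor adaptors, cell death and linear ubiquitin, 23 were detected, against 47.4% of all rows, and 6 were variable, against 40.5% of all detected genes. Per kilobase the highest were Otulin (Fam105b in the table) at 5.82, Rbck1 (5.38), Tradd, the TNFR1 adaptor gene (5.04), and the necroptosis effector gene Mlkl (4.73). Ripk3, the kinase gene that activates its product, varied most, with 1371, 1361, 219 and 345 reads, followed by Casp8 (SD 0.80) and Xiap (0.67). Of 20 kinase and coregulator genes 17 were detected and 10 were variable, beside the same shares over all genes. Per kilobase they were led by Commd1 (5.32), Tab1 (4.38), Tab2 (3.57) and Map3k7, the TAK1 gene (3.40). Nkap (SD 0.83), Map3k3 (0.77) and Nkrf (0.71) varied most. Map3k14, the gene of the noncanonical kinase NIK, averaged 4.86 ± 0.35.

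Listed target genes of NF-kB were split. Of 30 target genes 14 were detected (46.7%, near the 47.4% of all rows), and 11 of the 14 were variable, against 40.5% of all detected genes. Csf1, the macrophage growth factor gene, was highest per kilobase at 8.17, followed by the survival gene Bcl2l1 (7.61), Ier3 (5.94) and the plasminogen activator gene Plau (5.48). Ccl7, a monocyte chemokine gene, had 383, 622, 26 and 115 reads, Irf1 572, 504, 87 and 364, and the adhesion gene Icam1 8490, 8355, 2808 and 2342. Icam1, Vcam1 and Ccl7 were higher in libraries 1 and 2 than in 3 and 4 under both scalings. The fibroblast markers and the summed level of the leukocyte markers had this order too. Plau, Ptgs2 and Gadd45b had their highest value in library 4 under both, as Traf1, Relb and Nfkb2 and the smooth muscle markers did. The part of these markers was not tested. Il1b, Nos2 and Bcl2a1a had no reads. Of the other undetected targets, Mmp3, Mmp13, Il6, Sele and Tnfaip6 reached the threshold in some libraries. Ccl5, Ccl20, Cxcl1, Cxcl2, Cxcl5, Cxcl10, Csf2 and Mmp9 had few reads and reached it in none. Mmp3 had 785, 2492, 13 and 6 reads, Il6 270, 232, 0 and 0, and Sele 48, 25, 7 and 34.

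**Figure D4:**
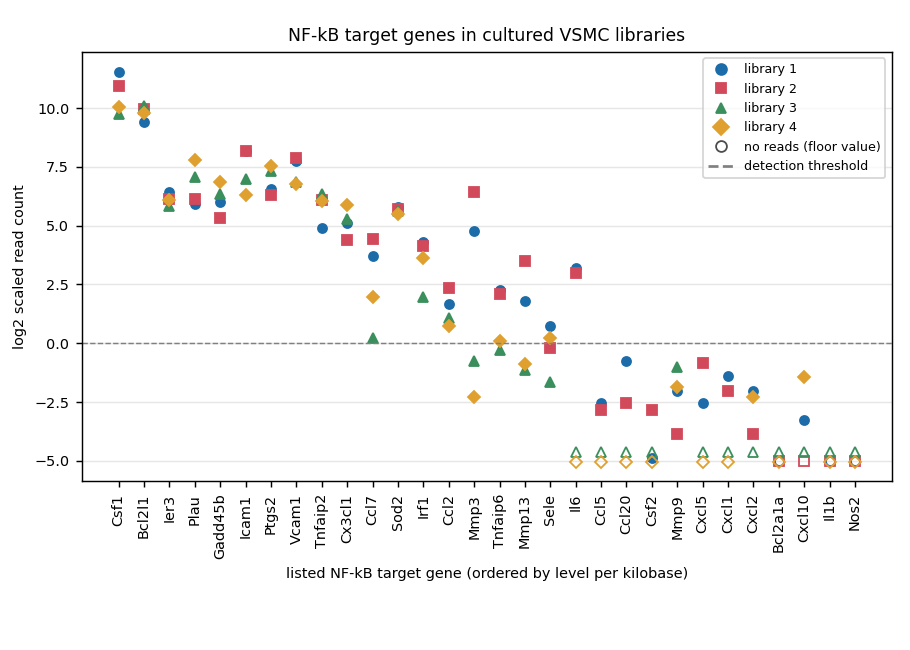
Log2 scaled read count (vertical axis) of 30 listed NF-kB target genes, ordered by their level per kilobase, with 1 symbol per library, open symbols for genes without reads and a dashed line at the detection threshold of 0. Csf1 and Bcl2l1 lie highest, and Il1b, Nos2 and Bcl2a1a lie at the floor in 4 of 4 libraries.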

How the data were processed

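The deposited table gives log2 values and gene positions for 25965 genes. Judged from the values, the authors scaled whole read counts by 1 constant per library before taking the log2, and put genes without reads at 0.9 read. Per the submitters' processing notes, Trim Galore, cutadapt, TopHat and GRCm38 were used; how reads were counted, with which annotation and strand setting, is not given in the sources used here. Division by that constant returned the reads, within 0.05 of a whole number for 99.8% to 99.9% of values. Limits on reads cover counting error only, because copies of 1 molecule cannot be told apart in these counts. Alternatives were other detection thresholds, size factors, transcript lengths, reads set at 3 for genes at 0, and leaving out each library.

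Columns were matched to libraries by the names in the labels, and libraries are numbered in accession order. Exon lengths are unions of GENCODE M21 exons on GRCm38, found for 60 of 60 members. Differences within libraries used an exact sign-flip permutation test. A planned contrast with Tnfsf12 was not run. Every detected member is named; values in each library are given for the 6 members highest per kilobase, genes of the contrasts, detected ligands and the 10 most variable detected members. For other gene lists, the 4 highest and 3 most variable detected genes are named; others were chosen after their values were seen. The members and lists were chosen with earlier results of these data known. Calculations were tested on simulated data and used pandas 2.3.3, numpy 2.4.6 and scipy 1.17.1 under Python 3.11.15, with figures by matplotlib 3.10.9.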

Additional observations from a re-analysis of the deposited data

Results flagged for a closer look

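Of 52 results (the levels of 39 detected members and 13 differences between genes), 2 had 1 library far from the other 3 by Dixon's criterion for 4 values, which chance meets in about 1 of 20 groups. Tnfrsf11b was 6.55 in library 2 against 8.56 to 8.78 in the others, and Tnfsf15 was 1.79 in library 2 against 2.87 to 3.00. Both were lowest in library 2 under both scalings, but Dixon's criterion was applied to the deposited values only. With size factors Tnfrsf11b had 8.46, 6.45, 8.92 and 8.68 in libraries 1 to 4. Tnfsf15 then had 2.55, 1.69, 3.26 and 3.12, with library 1 closer to library 2.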

How the results depend on the processing

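Of the alternatives to the reported counts and differences, most left them on the same side. The number of detected members ranged from 39 to 41 when each library was left out and was 38 with median-ratio size factors. It was 36 at a threshold of 1, 42 at a threshold of -1 and 35 by level per kilobase. Counting members at the threshold in at least 1 library gave 45. The number of variable members ranged from 17 to 23 without each library, and was 2 at an SD above 1 and 36 with no filter on low values. The median level of members was 3.42 to 3.63 without each library, and 5.18 over detected members only. Fas minus Tnfrsf10b changed sign, to -1.35 without division by length and to -0.25 with the longest transcripts, an alternative chosen after seeing the data, and ranged from -0.06 to 0.19 without each library. Leaving out a library could not change the sign of the other 12 differences, because each had 1 sign in 4 of 4 libraries. Nor could setting reads at 3 where both genes had reads in each library. These 12 differences kept their sign under each alternative run. Without division by length, those that moved by over 1.5 times were Chuk minus Ikbkb (-2.24), Nfkb1 minus Nfkb2 (-2.24), Rela minus Rel (6.87), Tnfrsf11b minus Tnfrsf11a (7.63) and Traf2 minus Traf1 (2.73). With size factors, also chosen after seeing the data for this count, 1 variable member was highest in library 1 in place of 13, and 6 in library 3 in place of 1. None of 195 recomputed levels of detected members moved by more than its SD between libraries. This was fixed in advance and says nothing about stability. Leaving out 1 of 4 libraries cannot move a mean by its SD, and these size factors leave each mean unchanged. No paired analysis was possible because all libraries belong to 1 group. Values under about 30 reads are limited by depth, and the read counts printed for undetected members carry that limit.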
